A study of Homo sapiens with 2 samples.

Results

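The enzymes described here are the NSD family and the other proteins named as histone H3 lysine 36 (H3K36) methyltransferases: NSD1, NSD2 (older symbol WHSC1), NSD3 (WHSC1L1), SETD2, ASH1L, SETMAR, SMYD2 and SETD3. Every array probe whose annotated gene, under its current or older symbol, was one of these 8 was taken, whatever its value. The annotation gave 15 probes for 7 of the 8 genes, out of 18774 genes with a named probe on the array. It named none for ASH1L, which therefore has no array values here. All values come from MDA-MB-231, an established human cell line of a highly invasive breast cancer, whose RNA was hybridised to 1-colour Illumina HumanWG-6 beadchips that report a brightness for each probe. One sample received 20 nM of an siRNA against the long isoform of NSD3 (NSD3L), and the other a non-specific control siRNA whose concentration is not stated separately in the labels. Each sample had 2 transfections with 48 h between them, and its RNA was purified 48 h after the later one. There was 1 array per group, so no value has an error between cultures, no test was possible, and culture, extraction and array cannot be told apart from the siRNA.

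Methylation of H3K36 marks transcribed chromatin. NSD1, NSD2 and NSD3 place the mono- and dimethyl forms through a shared SET domain, SETD2 travels with elongating RNA polymerase II and makes the trimethyl form over gene bodies, and ASH1L makes the dimethyl form. NSD3 is made as a long isoform with the SET domain and a short isoform that lacks it but keeps a PWWP domain. NSD3 lies in a region of chromosome arm 8p that is amplified in some breast cancers, and NSD2 is activated by a translocation in multiple myeloma. SETMAR joins a SET domain to a transposase, SMYD2 methylates p53 and other non-histone proteins as well as histones, and SETD3, first described as an H3K36 enzyme, is now known chiefly as the histidine methyltransferase of actin.

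The promoter of NSD2 is shown because an NSD2 probe gave the largest log2 ratio among the member probes measured above background on both arrays, and that of SETD3 because its brightest probe gave nearly the same reading on both arrays. Each window is the RefSeq promoter sequence on build GRCh38.p14, 250 bases before to 50 after the annotated start, 5′ to 3′ on the gene's strand, chr4:1871143-1871442 (plus strand) for NSD2 and chr14:99480810-99481109 (minus strand) for SETD3. Capitals mark matches to CCAAT, the core letters bound by NF-Y, and to the E2F letters TTTCCCGC, TTTGGCGC, TTTCGCGC or TTTGCCGC, both searched on both strands.
NSD2: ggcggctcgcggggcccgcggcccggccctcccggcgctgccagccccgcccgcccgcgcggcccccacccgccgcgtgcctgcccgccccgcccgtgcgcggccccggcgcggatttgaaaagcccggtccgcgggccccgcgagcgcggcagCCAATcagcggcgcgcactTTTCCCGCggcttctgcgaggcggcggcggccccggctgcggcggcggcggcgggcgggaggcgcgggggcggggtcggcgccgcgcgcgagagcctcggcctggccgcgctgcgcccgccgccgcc
SETD3: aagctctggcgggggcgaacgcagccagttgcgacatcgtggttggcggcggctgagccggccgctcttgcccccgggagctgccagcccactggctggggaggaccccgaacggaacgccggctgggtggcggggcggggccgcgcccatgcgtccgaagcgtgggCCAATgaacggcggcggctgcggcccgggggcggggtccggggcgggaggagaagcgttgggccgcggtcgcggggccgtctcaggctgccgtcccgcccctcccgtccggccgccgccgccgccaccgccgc
The NSD2 window held a CCAAT whose first base was at position -96 from the start and a TTTCCCGC whose first base was at position -77. The SETD3 window held a CCAAT with its first base at position -83 and no E2F match. Of all 35116 RefSeq promoter windows, 34.6% held CCAAT and 3.31% held one of the E2F words. The GC content was 86.7% in the NSD2 window and 79.0% in that of SETD3, against a median of 58.7% over all windows. These shares thus come from windows of unlike composition. The GC box (GGGCGG or CCGCCC) was also searched and is not capitalised. It occurred 6 times in the NSD2 window and 4 times in that of SETD3, and 45.0% of all windows held it. Among the other members, SETMAR had an E2F match, SMYD2 had a CCAAT, and NSD1 had a CCAAT in 2 overlapping windows of its 5. SETD2 and ASH1L had neither a CCAAT nor an E2F match, and the NSD3 promoter was not analysed here. The motifs were chosen after the array values were known, and a match describes letters only.

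Each array held 48701 probes, with a median intensity of 38.4 on both and a highest value of 17421. A floor was set at the upper edge of the background, 40.9 on the NSD3L siRNA array and 41.0 on the control array, and 16492 probes were above it on both. All 12 markers listed for the MDA-MB-231 line were above the floor on both arrays. Among them were VIM (vimentin) at 9129 under the NSD3L siRNA against 8758 under the control, and CD44 at 3238 against 3437. By the brightest probe of each gene, EGFR and AXL were over 1.5-fold. EGFR, a growth factor receptor gene, had 350 against 182 and was 1.92-fold higher, but another EGFR probe above the floor had a log2 ratio of -0.03. AXL, another receptor kinase gene, had 3246 against 2159, a log2 ratio of 0.59. CAV2, a marker of the same list, had log2 ratios of -0.23 on its brightest probe and -1.27 on another. PLAU (urokinase) was 1.42-fold lower, at 456 against 649. Of 10 luminal breast markers, 4 passed the floor on both arrays. Among all 18774 named genes, 10538 did so by their brightest probe. The luminal count was not far from that share, and no marker list was tested against it. ESR1, the oestrogen receptor gene, was below it at 34.3 against 33.4, CDH1 (E-cadherin) was just above it at 47.6 against 45.4, and EPCAM was above it at 113 against 110. Above the floor on both arrays were also 1 of 6 fibroblast markers and 2 of 6 blood markers. The blood markers were CD68, a lysosomal protein of macrophages, at 1195 against 1179, and CD14 at 50.2 against 53.8. PTPRC (CD45) was below the floor at 40.6 against 40.7.

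Of the 15 member probes, 13 were above the floor on both arrays, and the other two, both of NSD3, were above it on the control array alone. Among the 13, 8 read higher and 5 lower with the NSD3L siRNA, against 51.1% higher among all probes above the floor. The log2 ratio (NSD3L siRNA over control siRNA) ran from -0.16 to 0.62 with a median of 0.04, against a median of 0.01 and an SD of 0.29 over all 16492 probes. No member probe differed over 2-fold, the threshold in the series description, where 0.685% of all probes did. Over 1.5-fold there was 1, a probe of NSD2, against 5.79% of all probes, or 2.81% on the higher side alone. With 13 probes, the counts past 1.5-fold and 2-fold are near these background shares. By gene, NSD2 read higher with every probe and NSD1 with both, while SMYD2 read lower with both and NSD3 with every probe. Of the 4 members with at least 2 probes above the floor on both arrays, 3 (NSD1, NSD2 and SMYD2) had all of them on 1 side. That is near the 61.3% of 1016 such genes on the whole array.

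**Figure D1:**
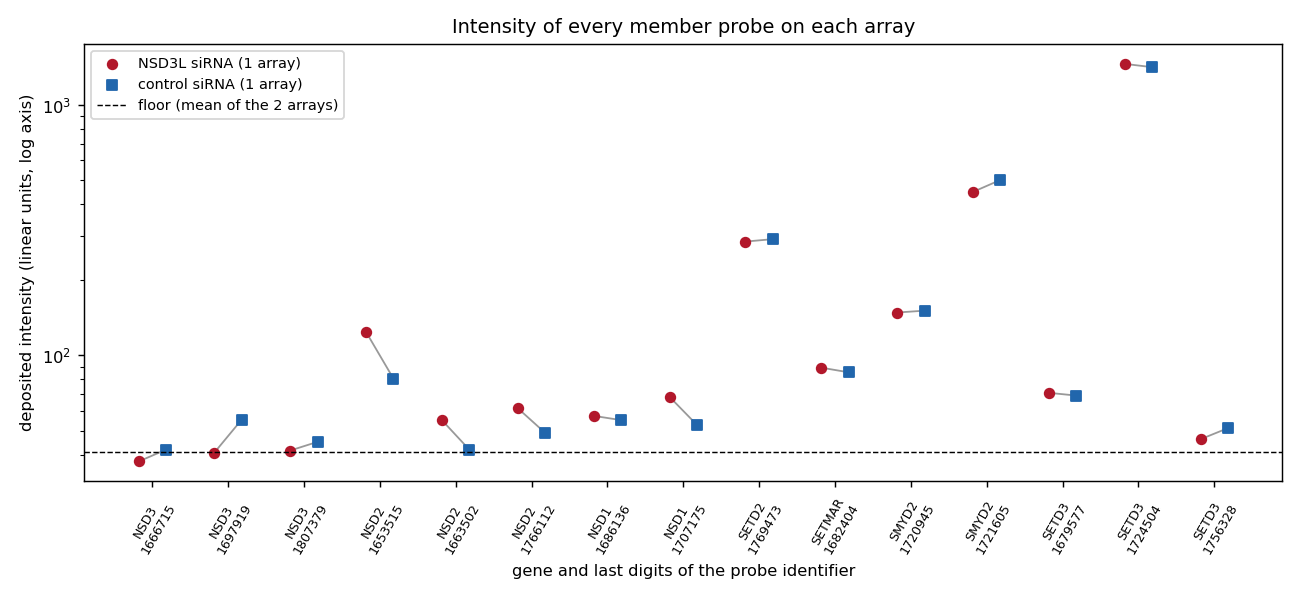
Deposited intensity (linear units, log axis) of each of the 15 member probes, with the NSD3L siRNA array on the left of each pair and the control siRNA array on the right, and the floor as a dashed line. The 3 NSD3 probes lie at or below 41.6 with the NSD3L siRNA, next to the floor, and between 41.9 and 55.3 with the control, all 3 NSD2 probes are higher with the NSD3L siRNA, and the brightest SETD3 probe is nearly level at 1458 and 1414.

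NSD3, the gene targeted, was read at the edge of what the arrays resolve. The long-isoform probe ILMN_1807379, annotated to transcript NM_023034, had an intensity of 41.6 under the NSD3L siRNA and 45.0 under the control, and ILMN_1666715, annotated to the same transcript, had 37.6 and 41.9. The short-isoform probe ILMN_1697919, annotated to NM_017778, had 40.8 and 55.3. All 3 were lower with the NSD3L siRNA. Only ILMN_1807379 passed the floor on both arrays, at a log2 ratio of -0.11, and 4.42% of the 1650 probes of like brightness had a lower ratio. Those 1650 probes were all above the floor on both arrays, so larger ratios next to the floor were left out of the comparison. ILMN_1666715 and ILMN_1697919 have bounds only, at least 1.02-fold and at least 1.35-fold lower. The difference in intensity units was -3.45 for ILMN_1807379, -4.29 for ILMN_1666715 and -14.5 for ILMN_1697919. Every probe was also lower in 188 of 1144 genes with at least 3 named probes, or 16.4%. Readings this near the background do not measure how much of either isoform was left. The annotated transcripts were not checked on the probe sequences.

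All 3 NSD2 probes read higher, and among member probes above the floor on both arrays they included the largest log2 ratio. ILMN_1653515 had an intensity of 124 under the NSD3L siRNA against 80.6 under the control, 1.53-fold higher. ILMN_1766112, annotated to the same transcript NM_007331, had 61.3 against 48.9, 1.25-fold higher. ILMN_1663502, annotated to NM_133334, had 54.9 against 41.9, 1.31-fold higher, and its control reading lay just above the floor of 41.0. The log2 ratios were 0.62, 0.33 and 0.39 in that order. Because dim probes cannot show large ratios, each was also placed among the probes of its own brightness group, 10 equal groups of the probes above the floor. ILMN_1653515 lay above 96.8% of its 1649 probes, ILMN_1766112 above 94.4% and ILMN_1663502 above 99.5%. Each exceeded the SD of its group, which was 0.32, 0.23 and 0.17. The groups hold only probes above the floor on both arrays, which leaves out large ratios among dim probes. Ranks and SDs in dim groups, as for ILMN_1663502, therefore do not place a probe among all probes of its brightness. The same limit holds for counts of genes by SD. In the group of ILMN_1653515, 3.58% of probes were over 1.5-fold higher. Of 183 genes with at least 3 probes above the floor, 40 (21.9%) had every probe higher and 12 (6.56%) had every probe higher by over 1 SD of its group, as NSD2 did. Those 183 genes had a median range between probes of 0.31 on the log2 scale, and the range in NSD2 was 0.29.

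NSD1, the gene mutated in Sotos syndrome, had probes that gave unequal readings. ILMN_1707175, annotated to NM_022455, had an intensity of 68.1 under the NSD3L siRNA against 52.6 under the control, a log2 ratio of 0.37 and above 96.5% of probes of like brightness. ILMN_1686136, annotated to NM_172349, had 57.2 against 55.0, a log2 ratio of 0.06 and above 57.1% of them. Both stood in the same brightness group, with an SD of 0.23, so only ILMN_1707175 differed by more than that SD. The gap of 0.32 between the probes was larger than the median range of 0.22 over 1016 genes with at least 2 probes above the floor. Whether the transcripts or the probes differed was not tested.

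**Figure D2:**
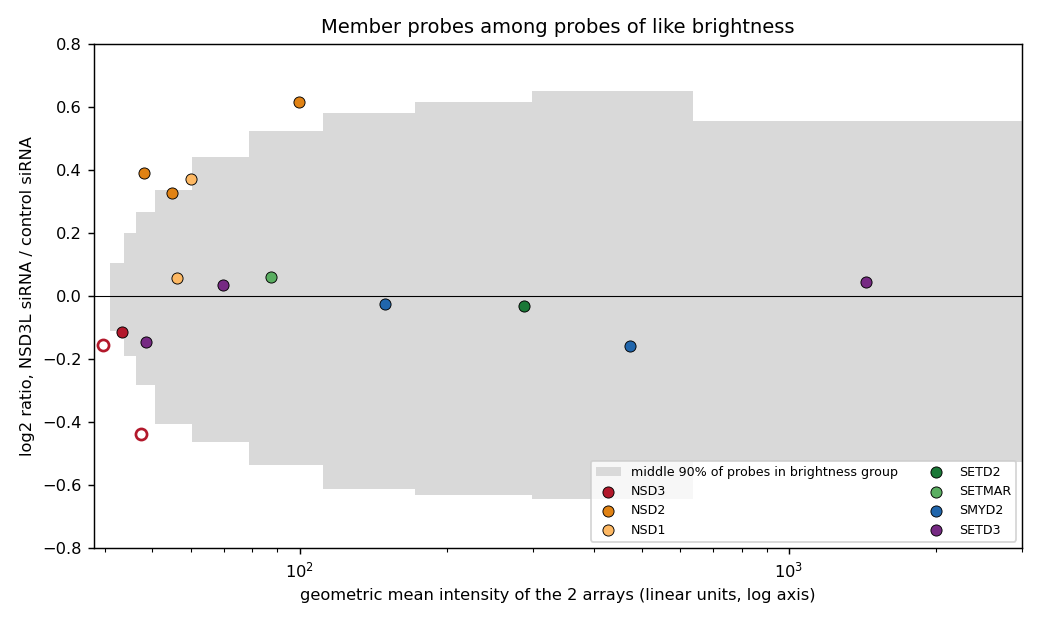
Log2 ratio (NSD3L siRNA over control siRNA) against geometric mean intensity (log axis) for the 15 member probes, with grey bands holding the middle 90% of probes in each brightness group and open circles for the 2 NSD3 probes below the floor with the NSD3L siRNA, drawn at their raw ratios. ILMN_1653515 and ILMN_1663502 of NSD2 and ILMN_1707175 of NSD1 lie above the bands, and ILMN_1807379 of NSD3 lies just below them. The third NSD2 probe, ILMN_1766112 at 0.33, lies just inside the upper edge. The other NSD1 probe and the SETD2, SETMAR, SMYD2 and SETD3 probes lie inside the bands.

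The remaining enzymes differed by less than the SD of probes of like brightness. So did 70.1% of all probes above the floor, and 8 of the 13 member probes above it. Lying within that SD therefore does not set these enzymes apart from other genes. SETD2, the enzyme of H3K36 trimethylation, had 284 under the NSD3L siRNA against 291 under the control, a log2 ratio of -0.03 where the group SD was 0.40. SETMAR had 89.1 against 85.4, a log2 ratio of 0.06 against an SD of 0.32. SMYD2 had 449 against 501 on its brighter probe ILMN_1721605 and 148 against 151 on ILMN_1720945, log2 ratios of -0.16 and -0.02. These were bright enough for a larger difference to show: in the brightness group of ILMN_1721605, 7.58% of probes were over 1.5-fold higher and 6.49% over 1.5-fold lower. SETD3 had 1458 against 1414 on ILMN_1724504, a log2 ratio of 0.04. Its dimmer probes, both annotated to NM_199123, had 70.7 against 69.0 on ILMN_1679577 and 46.2 against 51.1 on ILMN_1756328, log2 ratios of 0.04 and -0.15. The sign on ILMN_1756328 was opposite to that of the other two SETD3 probes, and the reading was near the floor. With single arrays an interval for these differences cannot be given, and small readings of a ratio do not show equal expression.

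Members other than NSD3 were ordered by their brightest probe, which in each passed the floor on both arrays. The log2 ratios ran from NSD2 (0.62) through NSD1 (0.37), SETMAR (0.06), SETD3 (0.04) and SETD2 (-0.03) to SMYD2 (-0.16). NSD2 and NSD1 were 0.25 apart, where the group SD was 0.32 for the NSD2 probe and 0.23 for the NSD1 probe. These SDs are spreads over different genes and not the error of a ratio, so the order was not tested. SETMAR, SETD3, SETD2 and SMYD2 each lay within the SD of its own group, as most probes did, and single arrays cannot order them. NSD3 is not placed against them. Its only probe above the floor on both arrays had a log2 ratio of -0.11, in a group at the floor with an SD of 0.06. Its brightest probe, ILMN_1697919, was above the floor on the control array alone and was at least 1.35-fold lower.

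The deposited intensities kept their background, and removing it changed the size of the NSD differences. The values removed from the arrays were nearly equal, so the signs of these differences could not change. With the most frequent value of each array subtracted, 34.8 under the NSD3L siRNA and 34.9 under the control, NSD2 had net intensities of 88.7 against 45.7 on ILMN_1653515, a net ratio of 1.94-fold, 26.5 against 14.0 on ILMN_1766112, 1.89-fold, and 20.1 against 7.04 on ILMN_1663502, 2.85-fold. NSD1 had 33.3 against 17.8 on ILMN_1707175, 1.87-fold, and 1.11-fold on ILMN_1686136. NSD3 had 6.76 against 10.2 on ILMN_1807379, 1.51-fold lower. By this reckoning 5 member probes differed over 1.5-fold, 4 of NSD2 and NSD1 higher and 1 of NSD3 lower, against 22.3% of all probes, and 1, of NSD2, over 2-fold, against 5.41%. SETD2, SMYD2, SETMAR and the brightest SETD3 probe had net log2 ratios between -0.17 and 0.10. Net values of a few units carry the noise of the background.

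**Figure D3:**
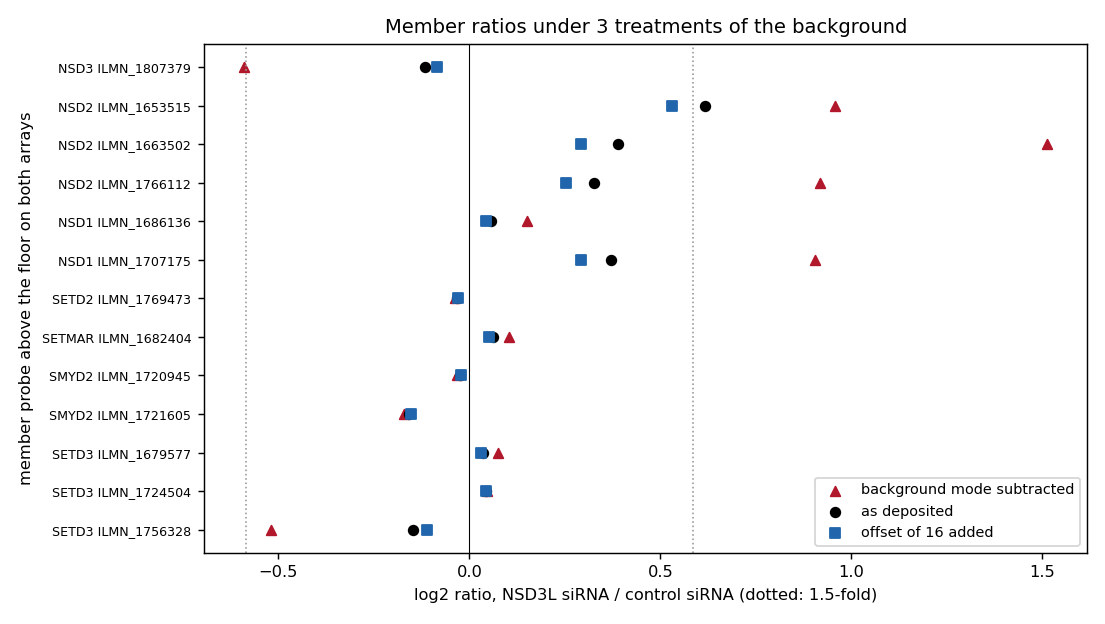
Log2 ratio (NSD3L siRNA over control siRNA) of the 13 member probes above the floor on both arrays, as deposited (circles), with the background mode subtracted (triangles) and with 16 added to every intensity (squares), and dotted lines at 1.5-fold. The ratios of NSD2, of ILMN_1707175 of NSD1 and of the dimmest probes of NSD3 and SETD3 spread out with the treatment, up to 1.51 for an NSD2 probe, while the bright SETD2, SMYD2 and SETD3 probes hardly move.

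The genomic neighbourhood of the genes moved with the ratios over the whole array. Genes with many protein-coding neighbours within 500 kb of their midpoint read higher with the NSD3L siRNA, with a median log2 ratio of 0.12 in the densest of 10 equal groups of genes and -0.11 in the sparsest. NSD1 had 22 neighbours, NSD2, NSD3 and SETD2 had 14 each, SETD3 had 6, and SMYD2 and SETMAR had 3 each. Genes with a density like that of NSD2, NSD3 and SETD2 had a median of 0.03. With the median of its density group removed, the log2 ratio of NSD1 was 0.30 on ILMN_1707175 and -0.02 on ILMN_1686136, and that of ILMN_1653515 of NSD2 was 0.59. The part of gene density in the members' ratios was not tested.

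The genes that act with these enzymes were followed in 7 lists of 62 genes, of which 54 were above the floor on both arrays by their brightest probe. Of these 54, 37 read higher and 17 lower with the NSD3L siRNA, with a median log2 ratio of 0.16, against 49.3% higher and a median of -0.00414 over 10538 genes. Over 1.5-fold there were 4 higher and 1 lower, against 3.63% and 4.06% of all genes, and none differed over 2-fold, against 0.949%. That split was 8 higher and 6 lower with the background mode subtracted and 2 higher and 1 lower with an offset of 16. Among proteins that bind methylated H3K36, 12 of 18 measured genes read higher, with a median of 0.16. The highest were MTF2, 1.56-fold higher at 258 under the NSD3L siRNA against 166 under the control, and PHF19, 1.53-fold higher at 220 against 144, both Tudor-domain partners of the Polycomb complex PRC2. All 3 PHF19 probes read higher, with log2 ratios from 0.61 to 0.77. MSH6, a mismatch repair protein with a PWWP domain, had 1286 against 880, a log2 ratio of 0.55. On the lower side PSIP1, the chromatin tether also called LEDGF, had 119 against 162, a log2 ratio of -0.45.

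**Figure D4:**
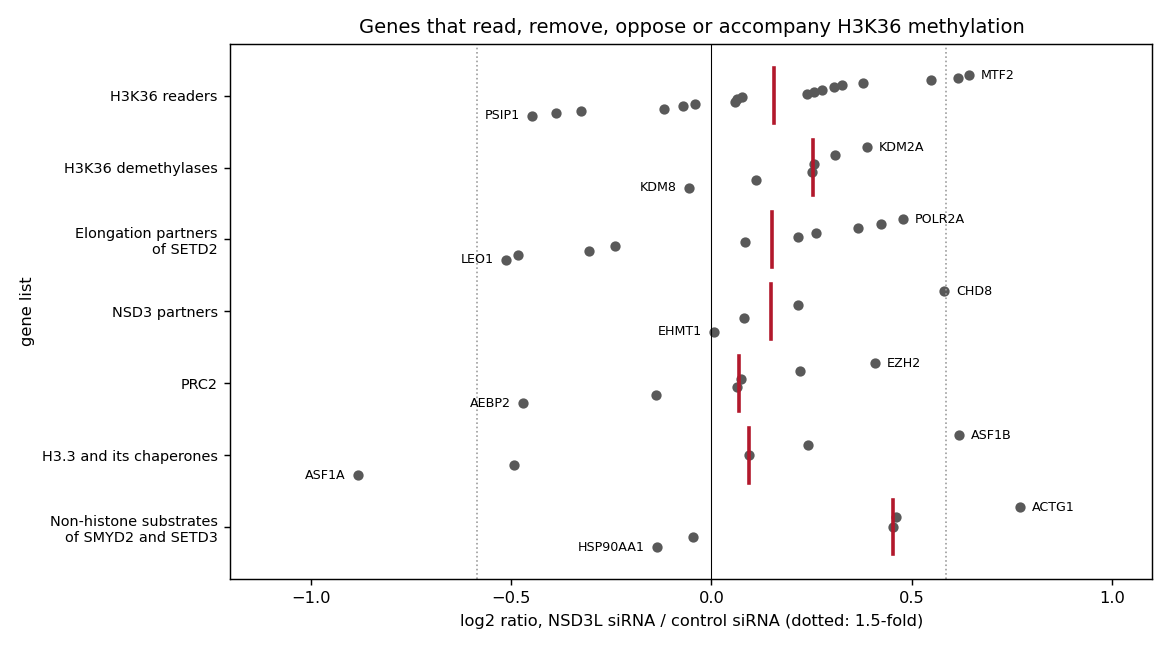
Log2 ratio (NSD3L siRNA over control siRNA) of the 54 list genes above the floor on both arrays, 1 point per gene by its brightest probe, with red bars for list medians and dotted lines at 1.5-fold; the highest and lowest gene of each list is named. The points scatter on both sides of 0, from -0.88 for ASF1A to 0.77 for ACTG1.

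Of the enzymes that remove H3K36 methylation, 5 of 6 measured genes read higher. KDM2A, the dimethyl demethylase, had 247 under the NSD3L siRNA against 189 under the control, a log2 ratio of 0.39, and KDM8 was the lower one at -0.06. KDM4A and KDM4C were below the floor on both arrays. Among the elongation partners of SETD2, 6 of 10 read higher, led by POLR2A, the largest subunit of RNA polymerase II, at 1488 against 1068 and a log2 ratio of 0.48. LEO1, a subunit of the PAF1 complex, had 146 against 208, a log2 ratio of -0.51. The 4 measured NSD3 partners all read higher, CHD8, a chromatin remodeller bound by NSD3, at 184 against 123 and a log2 ratio of 0.58 and EHMT1 at 0.01.

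The PRC2 genes, whose product H3K27 methylation is opposed by H3K36 methylation, went both ways, 4 higher and 2 lower. EZH2, the catalytic subunit, had 252 under the NSD3L siRNA against 190 under the control, a log2 ratio of 0.41, and AEBP2 had 73.1 against 101, a log2 ratio of -0.47. The paired histone chaperones ASF1A and ASF1B parted: ASF1A had 148 against 273 and was 1.84-fold lower, and ASF1B, the form most tied to dividing cells, had 178 against 116 and was 1.54-fold higher. H3-3B, which encodes the variant histone H3.3, had 253 against 356, a log2 ratio of -0.49, and DAXX, its chaperone, 0.24. Among substrates of SMYD2 and SETD3, ACTG1 (gamma-actin) had 1522 against 892 and was 1.71-fold higher, and ACTB (beta-actin) had a log2 ratio of 0.46 by its brightest probe and between 0.46 and 1.13 over 3 probes. HSP90AA1 had -0.14 by its brightest probe and 0.16 by another. Actin and H3.3 genes have near-identical copies, and the specificity of these probes was not tested.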

How the data were processed

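Total RNA of 2 samples was measured on 1 array each. The authors' deposited table holds 1 linear intensity per probe and array, and BeadStudio is named per the submitters' processing notes; no version, background correction or normalization step is given with it. The sorted intensities of the arrays differed by at most 0.025 on the log2 scale at any rank, so no further scaling was done. Probes were named through the platform annotation (23687 with 1 symbol, 25014 with several or none), with symbols updated by gene number. The annotation names a platform record without an array version, and its match to the version in the series description was not established.

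Log2 ratios, NSD3L siRNA over control siRNA, were taken without an offset. The floor was 2 times the mode (kernel density peak of values below the 75th percentile) less the 1st percentile. A probe above it on 1 array gave a bound. No test was run, and the number of arrays limits the precision. Members, lists, motifs and settings were chosen with earlier results of these data known. All member probes are named. From each list, the genes over 1.5-fold and the largest other value in each direction are named. The markers chosen for naming were VIM, CD44, ESR1, CDH1 and EPCAM. EGFR, AXL, PLAU, CAV2, CD68, CD14, PTPRC, KDM4A, KDM4C and EHMT1 were added after their values were seen. No genes of like pattern are named, since 2 arrays give a single difference. The ratio calculation was tested on simulated data, with known folds put only into probes brighter than every NSD1, NSD2 and NSD3 probe. It therefore does not check ratios near the background. Analyses used Python 3.11.15, NumPy 2.4.6, pandas 2.3.3, SciPy 1.17.1 and statsmodels 0.14.6.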

Additional observations from a re-analysis of the deposited data

How the results depend on the processing

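The counts were recomputed with quantile normalization, median centring, lowess, an offset of 16, subtraction of the mode, no floor, floors at the median and at the 75th percentile, and the mean over probes; removal of the gene density trend was chosen after seeing the data. Member probes over 1.5-fold numbered 0 with the offset and 5 with the mode subtracted, in place of 1, and those over 2-fold 1 with the mode subtracted, in place of 0. List genes over 1.5-fold numbered 3 with the offset (2 higher, 1 lower) and 14 with the mode subtracted (8 higher, 6 lower), in place of 5 (4 higher, 1 lower); the mode subtraction takes 22.7% of all genes past 1.5-fold. Under the other alternatives these counts and those of members reading higher stayed within 1.5 times. By the mean over probes, 3 of 7 member genes read higher, against 4 of 6 by the brightest probe. Of 114 member ratios under alternatives, 6 moved by more than the SD of probes of like brightness, all with the mode subtracted. Many of the 114 could not move, since the floor settings change only which probes are counted. Quantile normalization and median centring had little to change, because the sorted intensities of the arrays were already nearly equal. The 114 are therefore no measure of stability. With the density trend removed 2 changed sign, ILMN_1686136 of NSD1 to -0.02 and ILMN_1720945 of SMYD2 to 0.08. NSD2 read higher with every probe above the floor under each alternative. Low signal over background limits the NSD3, NSD2 and NSD1 probes and the dimmest SETD3 probe, and no alternative stands in for replicate arrays. No paired analysis was possible because each group had 1 array.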
